A study of Rattus norvegicus with 25 samples.

Results

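The genes described here encode the voltage-gated calcium and sodium channels and their auxiliary subunits in the rat hippocampus. They comprise every gene of the deposited count table whose symbol begins with Cacna1, Cacna2d, Cacnb, Cacng or Scn and a digit. That rule took 40 of the 34322 genes listed, 20 of them pore subunits (10 calcium and 10 sodium) and 20 auxiliary subunits (4 alpha-2-delta, 4 calcium channel beta, 8 gamma and 4 sodium channel beta genes). Counts were high enough to test in 38 of the 40, which left out Cacng1 and Scn11a, so that 19 pore and 19 auxiliary genes were tested. The tissue was the hippocampus of male Sprague-Dawley rats of 6 to 7 weeks, sequenced as polyA RNA in 25 libraries, 5 in each of 5 groups. TD-CCI rats had a controlled cortical impact (CCI), a mechanical brain injury model, and a dosage labelled only as thymus, in a series on bovine thymus supplements. TCF-CCI rats had the injury and thymus cytosolic factor, although the word for the injury is missing from their treatment label and stands in their source name. TNF-CCI rats had the injury and thymus nuclear factor, a gland extract and not the cytokine of the same initials. Vehicle-CCI rats had the injury and vehicle, and Vehicle-sham rats had sham surgery and vehicle. The amount given, the interval between injury and tissue collection and the hemisphere taken are not stated in the labels. Whether libraries came from separate animals is not stated either, and p-values here measure only how far these libraries spread, which may be technical.

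Voltage-gated calcium channels are built around a pore protein of the Cacna1 family, which sets the current type. Many of them, though not all types, carry alpha-2-delta and beta subunits that bring the pore to the membrane and tune its gating. P/Q and N type pores (Cacna1a, Cacna1b) trigger transmitter release at nerve terminals, L type pores (Cacna1c, Cacna1d) couple activity to gene expression in the cell body, and T type pores (Cacna1g, Cacna1h, Cacna1i) open near rest and drive burst firing. Most neuronal gamma genes are known less as calcium channel subunits than as transmembrane AMPA receptor regulatory proteins (TARPs), which traffic the main excitatory receptors of the synapse. Sodium channel pores of the Scn family start and carry the action potential, and their beta subunits are single-pass membrane proteins that shape gating and adhere to other cells. Scn7a is the exception among the sodium channel genes, since its product, called Nax, is a sensor of extracellular sodium described in glia and some neurons.

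Library totals ran from 27290179 to 44899467 counts, with a median of 32825459. Library Vehicle-sham 2 stood apart. Its mitochondrial ribosomal RNA took 25.6% of counts, with 17.3% in Vehicle-sham 3, 2.18 to 6.58% in the other 3 sham libraries and 2.95 to 10.9% over the 20 CCI libraries. The TMM factor, which scales library sizes, was 0.645 in Vehicle-sham 2 and 0.805 in Vehicle-sham 3. Since these are 2 of the 5 sham libraries, the calls against sham are also given without Vehicle-sham 2. The TNF-CCI group differed as well. Its median mitochondrial ribosomal RNA share was 3.29%, although TNF-CCI 2 was at 10.9%. The medians were 6.62% in TD-CCI, 6.55% in TCF-CCI, 7.86% in Vehicle-CCI and 6.58% in Vehicle-sham. Every TNF-CCI library total exceeded every TCF-CCI, Vehicle-CCI and Vehicle-sham total. Levels are in CPM, which are counts brought to an equal library size with the TMM factors, for comparisons of a gene between groups, and in RPKM, the same value per kilobase of exon, for comparisons between genes.

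Among the calcium channel pores, the hippocampus held mostly T type, P/Q type and R type transcripts. T type pores together made up 43.7% of the summed RPKM of the 10 calcium pore genes over the 25 libraries, P/Q and N type 26.0%, the R type gene Cacna1e 17.6% and L type 12.7%. Cacna1h, the T type pore with the highest level per length, had 14.2, 24.2 and 32.2 RPKM as the lowest, median and highest of the 20 CCI libraries, against 35.99, 6.11, 22.9, 31.7 and 35.6 RPKM in Vehicle-sham 1 to 5. Cacna1e had 12.9, 21.6 and 32.4 RPKM over the CCI libraries, against 29.6, 8.24, 19.2, 26.2 and 34.2 RPKM in the sham libraries. Cacna1a, the P/Q type pore, had 12.6, 19.9 and 30.6 RPKM over the CCI libraries, against 29.7, 6.91, 19.2, 28.3 and 28.99 RPKM in the sham libraries. In all of these 3 genes the groups overlapped and the lowest value of the 25 was that of Vehicle-sham 2. Cacna1i, another T type pore, followed at 18.1 ± 2.35 RPKM in TD-CCI, 22.05 ± 3.13 in TCF-CCI, 19.6 ± 6.40 in TNF-CCI, 18.002 ± 3.55 in Vehicle-CCI and 20.9 ± 7.63 in Vehicle-sham (SD, n = 5 each). In every group the means of Cacna1h, Cacna1e and Cacna1a lay closer together than the sum of their SDs. Cacna1i lay below Cacna1h and Cacna1e by more than the sum of the SDs in TD-CCI alone. These SDs are between libraries, while the genes were measured in the same libraries. They therefore cannot decide whether the genes differ within a library, which was not tested. Cacna1g averaged 11.6 RPKM over the CCI libraries and 7.64 RPKM over sham. Cacna1b averaged 11.7 RPKM over the CCI libraries and 10.3 RPKM over sham, Cacna1d 10.6 and 10.7 RPKM, and Cacna1c 5.41 and 4.83 RPKM. Cacna1f and Cacna1s, the L type pores of retina and skeletal muscle, made up 0.105% and 0.0499% of the family.

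Among the sodium channel pores, Scn8a, Scn2a and Scn1a, the channels of adult central neurons, made up 38.7%, 29.7% and 18.2% of the summed RPKM of the 10 genes over the 25 libraries. Scn8a, the main pore of mature axon initial segments and nodes, had 16.997, 24.6 and 32.3 RPKM as the lowest, median and highest of the CCI libraries, against 34.96, 7.58, 19.2, 27.7 and 34.1 RPKM in Vehicle-sham 1 to 5. Scn2a, the pore of unmyelinated axons and young initial segments, had 10.8, 17.8 and 25.7 RPKM over the CCI libraries, against 18.5, 26.6, 19.6, 20.97 and 22.4 RPKM in sham. Scn1a, the pore on which interneuron firing depends most, had 5.18, 11.4 and 16.4 RPKM over the CCI libraries, against 12.3, 8.70, 13.5, 12.1 and 11.9 RPKM in sham. Vehicle-sham 2 was the lowest of the 25 libraries for Scn8a and the highest for Scn2a, and Scn2a exceeded Scn8a there by far and in Vehicle-sham 3 by little, but not in Vehicle-sham 1, 4 and 5. Scn3a, a pore best known from fetal brain, averaged 4.18 RPKM over CCI and 4.63 RPKM over sham. The pores of muscle and peripheral nerve were rare: Scn4a, Scn9a, Scn10a and Scn11a took from 0.0338% to 1.12% of the family. Scn7a took 4.87 ± 3.89% over the 20 CCI libraries and 0.616 ± 0.153% over the 5 sham libraries (SD).

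Cacng8, the TARP most typical of the hippocampus, was among the highest auxiliary genes, with 64.6, 97.8 and 121 RPKM as the lowest, median and highest of the CCI libraries, against 134, 30.6, 81.5, 125 and 128 RPKM in Vehicle-sham 1 to 5. Scn3b, a sodium channel beta gene of central neurons, had 45.4, 68.8 and 95.1 RPKM over the CCI libraries, against 98.3, 33.3, 60.1, 105 and 129.6 RPKM in sham. The groups overlapped in both genes, and Vehicle-sham 2 was again the lowest library for each. Within their families, Scn3b made up 36.1% of the sodium channel beta RPKM, Cacng8 and Cacng7 48.8% and 30.4% of the gamma RPKM, Cacnb3 55.9% of the calcium channel beta RPKM, and Cacna2d3 and Cacna2d1 45.8% and 31.1% of the alpha-2-delta RPKM, as means over 25 libraries. Cacng1, the gamma subunit of skeletal muscle channels, was at most 0.138% of the gamma RPKM in any library.

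**Figure D1:**
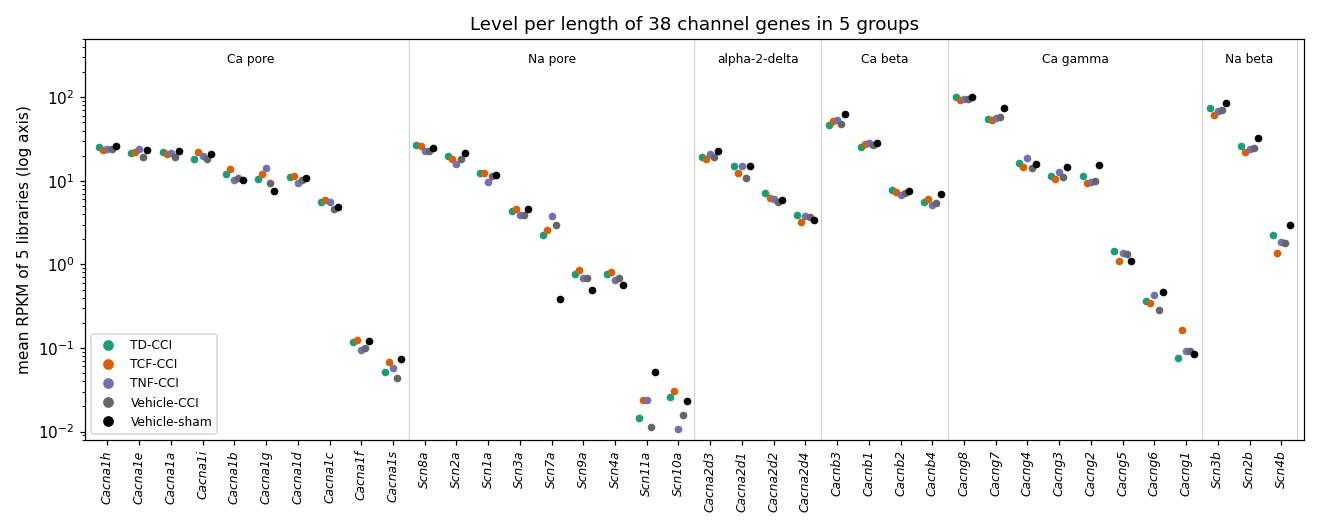
Mean RPKM of 5 libraries in each of the 5 groups (coloured points, log axis) for 38 of the 40 channel genes, arranged by kind of subunit. Of the genes drawn, Cacng8 stands highest among the auxiliary subunits and Scn8a and Cacna1h among the pores, and Scn7a is the pore whose sham point lies farthest below its 4 CCI points.

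Whether brain injury changed these genes was asked first of the mean of the 4 CCI groups against sham. Of the 38 genes tested, 1 pore gene was higher and 2 auxiliary genes were lower (edgeR quasi-likelihood test, Benjamini-Hochberg adjusted p below 0.05 over 21064 genes). Scn7a, the sodium sensor, was 7.29-fold higher, and the TARP genes Cacng2 and Cacng7 were lower, at 0.662 and 0.756 of sham. Over all genes tested 5.92% passed this threshold, 2.24% higher and 3.68% lower, so the share of channel genes called (3 of 38) was close to that of any gene. All 3 calls were lost without Vehicle-sham 2, when 14 genes in all (0.066%) passed. For each of the 38 genes some CCI library lay within the sham range or some sham library within the CCI range, and 0.0807% of all genes had no such overlap. In bulk tissue, fewer cells of a type and less RNA per cell cannot be told apart.

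Scn7a lies on chromosome 3 (mRatBN7.2, 51335841 to 51438308, minus strand), in a row of sodium channel pore genes with Scn3a, Scn2a, Scn1a and Scn9a. Its level was 15.1, 15.2, 24.4, 9.74 and 13.5 CPM in TD-CCI 1 to 5, 36.5, 12.02, 19.5, 17.96 and 3.52 CPM in TCF-CCI 1 to 5 and 50.5, 47.8, 8.34, 5.53 and 22.4 CPM in TNF-CCI 1 to 5. It was 44.01, 29.4, 16.4, 3.47 and 11.2 CPM in Vehicle-CCI 1 to 5, against 2.15, 2.73, 2.74, 2.28 and 3.71 CPM in Vehicle-sham 1 to 5. The sham libraries were all low and close together, while the CCI libraries ranged widely within each group. Of the 20 CCI libraries 18 exceeded every sham library, and TCF-CCI 5 and Vehicle-CCI 4 lay just below the highest sham value but above the sham mean. On the log2 scale the CCI mean stood 2.87 ± 0.57 (SE) above sham, with an edgeR adjusted p of 0.0222. Without Vehicle-sham 2, whose Scn7a level was in the middle of the sham range, it was 2.89 ± 0.64 with an edgeR adjusted p of 0.0600, and over the other planned settings and single libraries left out the adjusted p ran from 1.43e-05 to 0.131. The summed level of 10 microglial markers was 180 to 622 CPM in the CCI libraries, against 144 to 223 CPM in sham. By the same test 7 of the 10 genes were higher, as were 2.24% of all genes. Without Vehicle-sham 2, 0 of the 10 were called, where 0.066% of all genes were. In that fit their median log2 fold change was 1.16, with 0 of the 10 below 0. The microglial marker sum is given here only for the CCI libraries at either end of Scn7a. The sum was 604 CPM in TNF-CCI 1, 364 CPM in TNF-CCI 2 and 622 CPM in Vehicle-CCI 1, the 3 libraries highest in Scn7a. It was 180 CPM in TCF-CCI 5, 378 CPM in TNF-CCI 4 and 222 CPM in Vehicle-CCI 4, the 3 CCI libraries lowest in Scn7a. Astrocyte markers summed to 4603 to 13305 CPM in CCI, against 4413 to 8903 CPM in sham, with Gfap higher (log2 fold change 1.33, edgeR adjusted p = 0.0289, and 0.109 without Vehicle-sham 2). Without Vehicle-sham 2, 0 of the 8 astrocyte markers were called, where 0.066% of all genes were. In that fit their median log2 fold change was 0.32, with 1 below 0, and Slc1a3 and Slc1a2 were at 0.15 and 0.00. The part of these cells in the Scn7a result was not tested. Markers of peripheral sensory neurons, where Scn7a is also known, summed to 9.76 to 14.3 CPM in CCI, against 9.56 to 14.5 CPM in sham.

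Cacng2, also called stargazin, carries AMPA receptors to the synapse, and lies on chromosome 7 (109572838 to 109698516, minus strand). It was at 31.4, 47.3, 36.5, 58.9 and 44.1 CPM in TD-CCI 1 to 5, 31.9, 30.9, 37.5, 41.5 and 40.7 CPM in TCF-CCI 1 to 5 and 44.3, 30.2, 37.95, 38.5 and 33.4 CPM in TNF-CCI 1 to 5. It was at 30.6, 29.6, 41.5, 52.6 and 36.5 CPM in Vehicle-CCI 1 to 5, against 51.6, 87.98, 42.95, 61.2 and 48.999 CPM in Vehicle-sham 1 to 5. The highest value was that of Vehicle-sham 2, and 15 of the 20 CCI libraries lay below every sham library. The mean was 38.8 ± 7.87 CPM over CCI and 58.5 ± 17.7 CPM over sham (SD, n = 20 and 5). On the log2 scale the fitted change was -0.60 ± 0.15 (SE), with an edgeR adjusted p of 0.0259. Without Vehicle-sham 2 the log2 fold change was -0.37 ± 0.14, with an edgeR adjusted p of 0.198 (0.00978 to 0.178 over the other planned settings, and no other single library ended the call).

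Cacng7, a TARP gene beside Cacng8 and Cacng6 on chromosome 1 (65800820 to 65831165, minus strand), was at 81.9, 97.9, 88.9, 114 and 88.2 CPM in TD-CCI 1 to 5, 79.9, 89.4, 86.7, 109.99 and 87.5 CPM in TCF-CCI 1 to 5 and 79.4, 87.96, 106, 117 and 97.99 CPM in TNF-CCI 1 to 5. It was at 83.7, 83.97, 112, 128 and 88.1 CPM in Vehicle-CCI 1 to 5, against 112, 157, 115, 135 and 112 CPM in Vehicle-sham 1 to 5. Again Vehicle-sham 2 was highest, and 17 of the 20 CCI libraries lay below every sham library, all but TD-CCI 4, TNF-CCI 4 and Vehicle-CCI 4. The mean was 95.4 ± 14.2 CPM over CCI and 126 ± 20.0 CPM over sham (SD, n = 20 and 5). The fitted log2 change was -0.40 ± 0.11 (SE), with an edgeR adjusted p of 0.0392. Without Vehicle-sham 2 it was -0.28 ± 0.11 with an edgeR adjusted p of 0.233, and leaving out any of 13 libraries raised the adjusted p above 0.05. Markers of pyramidal and granule neurons, among the cells in which these TARPs are known, were summed over 10 genes. The sum was 2214 to 6155 CPM in CCI, against 3448 to 6952 CPM in sham. All 10 genes were below 0 and 2 were lower by the test, as were 3.68% of all genes. Without Vehicle-sham 2, 0 of the 10 were called, where 0.066% of all genes were. In that fit all 10 stayed below 0, with a median of -0.40. Interneuron markers, also 10 genes, summed to 197 to 480 CPM in CCI, against 270 to 462 CPM in sham. Without Vehicle-sham 2, 0 of these 10 were called and 8 were below 0, with a median of -0.12. The part of either set of markers in the Cacng2 and Cacng7 results was not tested.

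**Figure D2:**
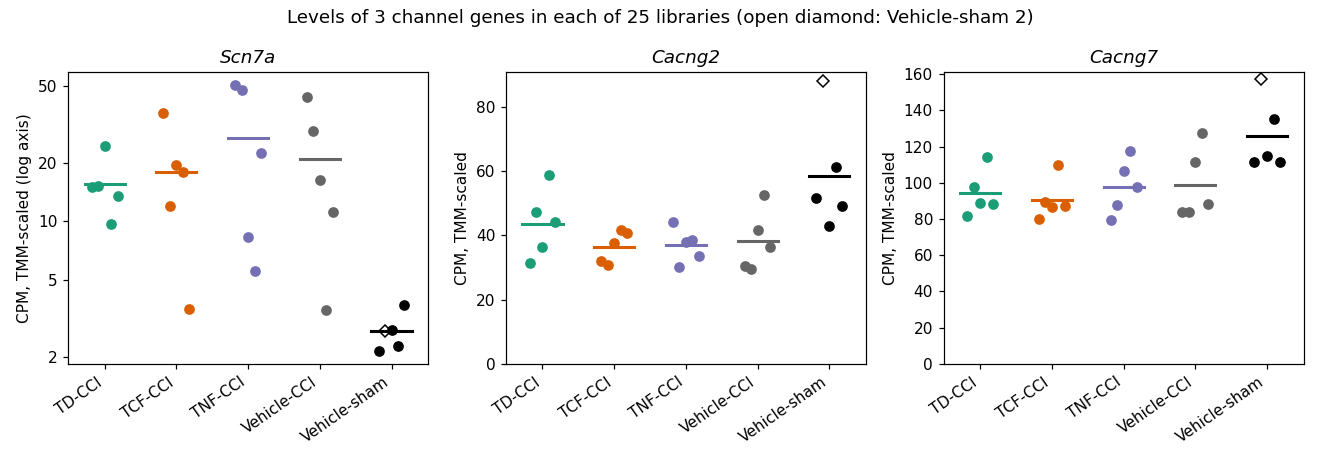
CPM in each library of the 5 groups for Scn7a (log axis), Cacng2 and Cacng7, with a bar at each group's mean and an open diamond for Vehicle-sham 2. The 20 CCI libraries spread from 3.47 to 50.5 CPM for Scn7a, and for both TARP genes the diamond is the highest point.

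The stretches of 250 bases before the start of transcription of Scn7a, of its neighbour Scn9a and of Cacng2 are shown because these were the gene called higher, the pore gene with the next smallest p, and a gene called lower. They are RefSeq sequences on the build GRCr8, minus strand in each case, written in the direction of transcription, with motif matches in capitals. Scn7a is chr3:71846285-71846534, Scn9a chr3:71701378-71701627 and Cacng2 chr7:111577758-111578007.
Scn7a: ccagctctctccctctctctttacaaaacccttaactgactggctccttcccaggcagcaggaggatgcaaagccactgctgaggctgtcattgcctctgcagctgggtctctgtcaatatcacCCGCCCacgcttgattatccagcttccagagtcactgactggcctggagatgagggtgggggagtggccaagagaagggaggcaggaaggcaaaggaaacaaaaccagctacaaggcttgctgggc
Scn9a: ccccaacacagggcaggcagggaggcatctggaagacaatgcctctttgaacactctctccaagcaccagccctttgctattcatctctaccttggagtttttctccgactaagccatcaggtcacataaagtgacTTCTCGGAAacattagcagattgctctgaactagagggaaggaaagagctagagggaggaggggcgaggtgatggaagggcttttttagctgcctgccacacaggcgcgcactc
Cacng2: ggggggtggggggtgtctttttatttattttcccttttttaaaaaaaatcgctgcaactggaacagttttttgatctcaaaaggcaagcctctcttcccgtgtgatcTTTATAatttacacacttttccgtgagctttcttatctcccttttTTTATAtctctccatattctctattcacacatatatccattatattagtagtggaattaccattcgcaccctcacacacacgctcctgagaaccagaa
The motifs searched, on both strands and with N for any base, were 4. The AP-1 motif was spelled TGANTCA. The STAT motif was spelled TTCNNNGAA. For the TATA box the letters were TATAAA. For the GC box the letters were GGGCGG. No match of one motif overlapped a match of another in these 3 promoters. The capitals mark a GC box on the other strand in Scn7a, a STAT motif in Scn9a, and TATA boxes on the other strand at 2 places in Cacng2. Of 33469 promoters in the table, 30.5% hold the GC box, 7.67% the STAT motif, 12.9% the TATA box and 6.34% the AP-1 motif, and a match is a description and not a site. Of the 27 channel genes with a sequence, 13 held a GC box, 2 a STAT motif, 2 a TATA box and 1 an AP-1 motif. Each gene counts once if any of its promoters held the motif, whereas the shares over the table are per promoter. The promoters differ in composition. Scn7a and Cacng2 have 56% and 38.4% G and C with 2 and 5 CG pairs, where the medians of the table are 51.2% and 5. Those of Scn8a, Cacna1d and Cacna1a have 86%, 88.8% and 76.8% with 53, 56 and 34 CG pairs.

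The other sodium channel pores gave no call in the mean of the CCI groups. Scn9a, best known from pain-sensing neurons and lying beside Scn7a, was at 8.10, 5.03, 8.81, 8.29 and 7.50 CPM in TD-CCI 1 to 5, 6.85, 10.1, 7.47, 9.18 and 9.07 CPM in TCF-CCI 1 to 5 and 3.71, 9.65, 8.84, 7.68 and 3.94 CPM in TNF-CCI 1 to 5. It was at 8.15, 5.81, 5.79, 4.10 and 9.74 CPM in Vehicle-CCI 1 to 5, against 5.23, 2.11, 5.71, 5.48 and 5.78 CPM in Vehicle-sham 1 to 5. Its 4 sham libraries other than Vehicle-sham 2 were close together, and 16 of 20 CCI libraries exceeded every sham library. The log2 fold change was 0.59 ± 0.23 (SE, edgeR adjusted p = 0.117), and 0.44 ± 0.23 without Vehicle-sham 2 (edgeR adjusted p = 0.375). Of the main neuronal pores, Scn8a was at 0.00 ± 0.20, Scn1a at -0.03 ± 0.15 and Scn2a at -0.26 ± 0.13 on the log2 scale (SE, edgeR adjusted p = 0.992, 0.923 and 0.231). The value of Scn8a turned to -0.20 without Vehicle-sham 2.

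No calcium channel pore was called. Their log2 fold changes ran from -0.45 for Cacna1s to 0.58 for Cacna1g, with a median of -0.11 and 7 of 10 below 0, against a median of 0.01 and 48.8% below 0 over all genes. Cacna1g, the T type pore of thalamic and other burst-firing neurons, had the smallest p among them (0.58 ± 0.32, SE, edgeR adjusted p = 0.271), with 8 of 20 CCI libraries above every sham library. Without Vehicle-sham 2, which was at 12.6 CPM where the other sham libraries were at 59.1 to 97.9 CPM, the value was 0.35 ± 0.28 (SE, edgeR adjusted p = 0.593), and 0.21 without Vehicle-sham 2 and 3. Thalamus markers summed to 381 CPM in TD-CCI 4 and to 114 to 173 CPM in the other 19 CCI libraries, against 104 to 149 CPM in sham. TD-CCI 4 had 80.7 CPM of Cacna1g, within the sham range, and TNF-CCI 1, highest in Cacna1g at 275 CPM, had a thalamus sum of 155 CPM. The part of thalamic tissue in the Cacna1g values was not tested. The median of the calcium pores was -0.27 without Vehicle-sham 2, in which 8 of 10 of these genes lay below the other sham libraries.

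The auxiliary genes and the pores were also described apart. The auxiliary genes' median log2 fold change was -0.32 with 15 of 19 below 0, against -0.03 with 11 of 19 for the pores, and without Vehicle-sham 2 these were -0.31 with 16 of 19 and -0.08 with 13 of 19. Without Vehicle-sham 2 and 3 the medians were -0.42 for the auxiliary genes, -0.16 for the pores and -0.39 for the calcium pores among them, and -0.40, -0.11 and -0.30 when the share of mitochondrial rRNA entered the fit. The median of all genes is given only for the fit of all 25 libraries without this share. Shifts between fits are therefore not set against those of all genes. The difference between the kinds was not tested, since genes are not replicates. All 4 sodium channel beta genes were below 0 (median -0.44), as were all 4 calcium channel beta genes (median -0.20), 5 of 7 gamma genes (median -0.37) and 2 of 4 alpha-2-delta genes (median -0.06). Of the sodium channel beta genes, Scn4b, which is known for the resurgent current of fast-firing neurons, had -0.71 ± 0.30 (SE, edgeR adjusted p = 0.141). Scn2b had -0.41 ± 0.19 and Scn3b -0.32 ± 0.20 (SE, edgeR adjusted p = 0.177 and 0.337). Cacnb4, the beta subunit whose loss gives the lethargic mouse, had -0.32 ± 0.13 with 14 of 20 CCI libraries below every sham library (SE, edgeR adjusted p = 0.129). Over the 38 genes an unadjusted p below 0.05 was reached by 2 genes higher and 6 lower, against 9.68% and 15% of all genes.

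The remaining auxiliary genes had no call. Cacna2d3, the alpha-2-delta gene with the highest level, had 19.3 ± 4.91 RPKM over CCI and 22.5 ± 6.69 RPKM over sham (SD, n = 20 and 5), with a log2 change of -0.23 ± 0.19 (SE, edgeR adjusted p = 0.472). Cacna2d1 was at -0.20 ± 0.20, Cacna2d2 at 0.09 ± 0.19 and Cacna2d4 at 0.10 ± 0.14 on the log2 scale (SE, edgeR adjusted p = 0.566, 0.801 and 0.674). Cacnb3, the leading beta gene, had 49.8 ± 12.1 RPKM over CCI and 62.7 ± 11.2 RPKM over sham (SD, n = 20 and 5), with 8 of 20 CCI libraries below every sham library and a log2 change of -0.33 ± 0.17 (SE, edgeR adjusted p = 0.223). Cacnb1, the beta subunit also used by skeletal muscle, was at -0.06 ± 0.14, and Cacnb2, also used by the heart, at -0.08 ± 0.12 (SE, edgeR adjusted p = 0.823 and 0.741). Of the TARP genes, Cacng3 was at -0.37 ± 0.21, Cacng4 at 0.01 ± 0.17, Cacng5 at 0.23 ± 0.29 and Cacng8 at -0.06 ± 0.19 (SE, edgeR adjusted p = 0.283, 0.985, 0.648 and 0.877). Cacng6, which is not a TARP, was rare, with 0.355 ± 0.123 RPKM over CCI and 0.463 ± 0.232 RPKM over sham (SD, n = 20 and 5).

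Of the rare sodium pores, Scn4a, the skeletal muscle channel, had 0.730 ± 0.202 RPKM over CCI and 0.566 ± 0.191 RPKM over sham (SD, n = 20 and 5), with 11 of 20 CCI libraries above every sham library and a log2 change of 0.35 ± 0.23 (SE, edgeR adjusted p = 0.360). Scn3a was at -0.15 ± 0.11 on the log2 scale (SE, edgeR adjusted p = 0.404). Scn10a was at -0.22 ± 0.42 (SE, edgeR adjusted p = 0.781). Scn11a, a channel of pain-sensing neurons, and Cacng1 were too rare to test.

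**Figure D3:**
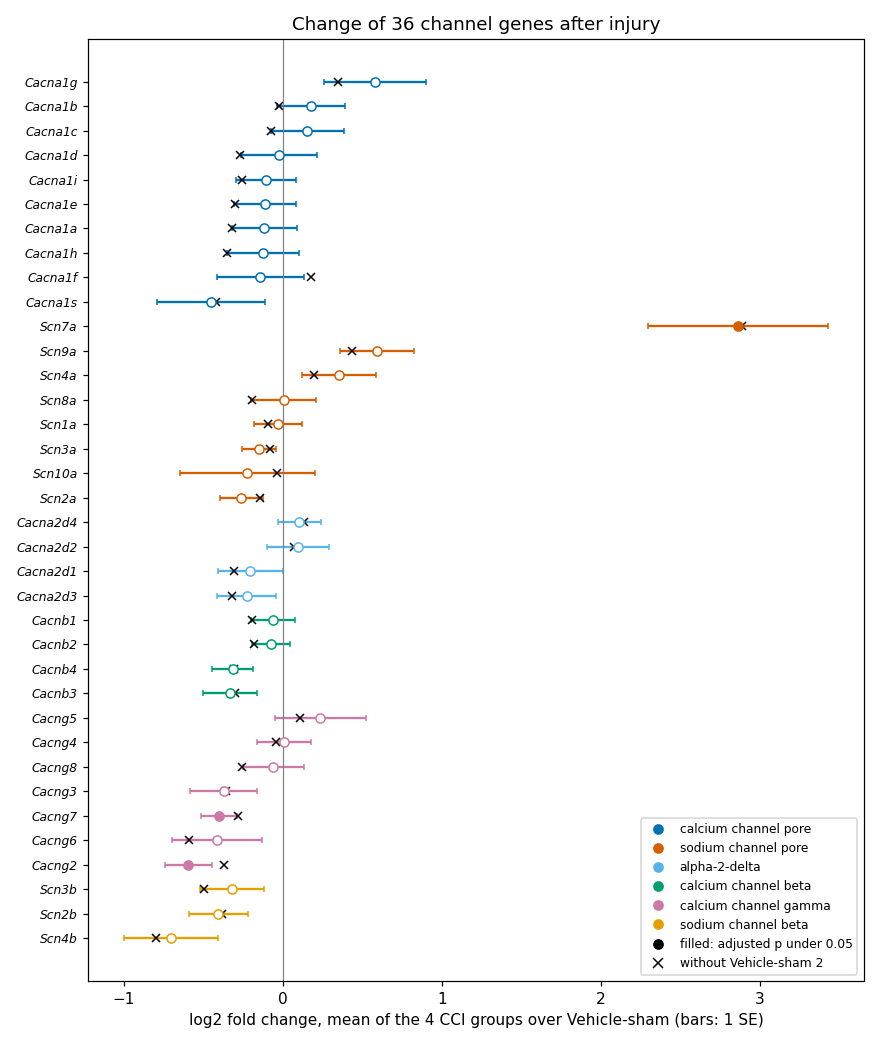
Log2 fold change with its SE for 36 of the 38 channel genes tested, mean of the 4 CCI groups over Vehicle-sham, by kind of subunit. Filled points passed an edgeR adjusted p of 0.05 and crosses give the value without Vehicle-sham 2; Scn7a at 2.87 lies far to the right of every other gene drawn, and the crosses of most calcium pores lie to the left of their points.

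The CCI groups taken singly had fewer calls. TNF-CCI had 1 call among the 38 genes, Scn7a, which was 9.86-fold higher than sham (3.30 ± 0.63 on the log2 scale, SE, edgeR adjusted p = 0.0198), with all 5 TNF-CCI libraries above all 5 sham libraries. Over all genes 2.57% were called there and 3.51% did not overlap. DESeq2 called 2 of the 38, Scn7a and Cacng2 (5.62% of all genes), and limma voom 1, Cacng2 (4.6% of all genes). An unadjusted edgeR p below 0.05 was reached by 7 of the 38 (3 higher and 4 lower) and by 20% of all genes. The call was lost without TNF-CCI 1 (log2 fold change 2.95, edgeR adjusted p = 0.0667), TNF-CCI 5 (3.36, 0.0553) or Vehicle-sham 4 (3.23, 0.0613), and held without Vehicle-sham 2 (3.33, 0.0281). It also held with the mitochondrial rRNA share in the fit (3.42, edgeR adjusted p = 0.0299). The part of the higher library totals of TNF-CCI in its calls was not tested. Scn2a was the other gene without overlap in TNF-CCI, all 5 libraries lying below sham (log2 fold change -0.45 ± 0.17, SE, edgeR adjusted p = 0.137), at 99.2, 139.8, 163, 164 and 158 CPM in TNF-CCI 1 to 5, against 169.8, 245, 179.9, 193 and 206 CPM in Vehicle-sham 1 to 5. Cacng2 had -0.67 ± 0.19 (SE, edgeR adjusted p = 0.0598).

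TCF-CCI had 0 of 38 genes called by edgeR, 7 at an unadjusted p below 0.05 (2 higher and 5 lower), 1 by DESeq2 and 4 by limma voom. Over all genes these shares were 0.0142%, 18%, 1.53% and 1.84%. Cacng2 (-0.68 ± 0.19), Cacng7 (-0.48 ± 0.15) and Scn4b (-1.08 ± 0.40) lay below sham and Scn9a (0.80 ± 0.28) above it with no overlap between the 5 TCF-CCI and the 5 sham libraries (log2 fold change and SE, edgeR adjusted p = 0.155, 0.164, 0.190 and 0.180), where 3.55% of all genes did not overlap. The 4 called by voom were Cacng2, Cacng7, Scn3b and Scn4b, all lower. All 7 gamma and all 4 sodium channel beta genes tested were below 0 in TCF-CCI, with medians of -0.46 and -0.60, where 49.5% of all genes were below 0. Scn7a had 2.71 ± 0.62 (SE, edgeR adjusted p = 0.144).

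TD-CCI and Vehicle-CCI each had 0 of 38 genes and 0% of all genes called by edgeR against sham. In TD-CCI 4 of the 38 had an unadjusted p below 0.05 (2 higher and 2 lower), with 1 called by DESeq2 and 0 by voom, against 16.5%, 1% and 0.00949% of all genes. Scn7a was 2.51 ± 0.62 there (SE, edgeR adjusted p = 0.151) and was the only 1 of the 38 whose TD-CCI libraries did not overlap sham, where 3.23% of all genes did not overlap. In Vehicle-CCI 4 of the 38 had an unadjusted p below 0.05 (1 higher and 3 lower), with 1 called by DESeq2 and 0 by voom, against 12.7%, 1.15% and 0% of all genes. None of the 38 separated Vehicle-CCI from sham, as 0.783% of all genes did, and Scn7a was 2.94 ± 0.63 (SE, edgeR adjusted p = 0.132). The gene that DESeq2 called in each of these was Scn7a, with DESeq2 adjusted p-values of 0.0175 in TD-CCI, 0.00836 in TCF-CCI, 1.13e-04 in TNF-CCI and 0.00372 in Vehicle-CCI. Leaving out any single library left 0 of 38 genes called by edgeR in TD-CCI and in TCF-CCI. These 4 comparisons share the 5 sham libraries and are not independent.

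The authors' deposited table for each CCI group, made with DESeq2 over the control, gave Scn7a a log2 fold change of 2.51 in TD-CCI, 2.72 in TCF-CCI, 3.31 in TNF-CCI and 2.94 in Vehicle-CCI. Adjusted p-values in the authors' deposited tables were 3.1e-17 for Scn7a in TD-CCI, 3.6e-06 in TCF-CCI, 1.6e-07 in TNF-CCI and 4.4e-05 in Vehicle-CCI. The authors' deposited table for TCF-CCI also called Scn4b lower (-1.07, adjusted p = 0.00576). The authors' deposited tables called 2.34%, 2.24%, 3.53% and 0.326% of the genes to which they give an adjusted p in TD-CCI, TCF-CCI, TNF-CCI and Vehicle-CCI.

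Whether a thymus supplement changed the channel genes after injury was asked against Vehicle-CCI. None of the 38 genes was called in TD-CCI, TCF-CCI or TNF-CCI over Vehicle-CCI by edgeR, DESeq2 or limma voom, none had an unadjusted edgeR p below 0.05, and none separated the groups without overlap. Over all genes, edgeR and voom called 0% in each comparison, and DESeq2 0.00307% in TD-CCI, 0% in TCF-CCI and 0.00307% in TNF-CCI. An unadjusted edgeR p below 0.05 was reached by 1.75%, 1.44% and 3.46% of all genes, and 0.423%, 0.513% and 0.513% did not overlap. Cacna2d1, the alpha-2-delta gene whose product binds gabapentin, had the smallest p in TD-CCI and TNF-CCI, at 47.5, 51.7, 53.9, 65.7 and 76.4 CPM in TD-CCI 1 to 5, 63.7, 48.3, 53.5, 78.7 and 50.7 CPM in TNF-CCI 1 to 5 and 43.9, 18.1, 41.4, 65.3 and 42.6 CPM in Vehicle-CCI 1 to 5. Vehicle-CCI 2 was the lowest of these libraries, and both groups overlapped Vehicle-CCI. The log2 fold change was 0.48 ± 0.26 in each (SE, edgeR adjusted p = 1.00 in both). It was 0.29 in each without Vehicle-CCI 2, and without Vehicle-CCI 4 it was 0.69 in TD-CCI and 0.70 in TNF-CCI. In TCF-CCI the smallest p was that of Scn10a, a pore of peripheral sensory neurons that was near the limit of detection, at 0.298, 0.546, 0.228, 0.121 and 0.299 CPM in TCF-CCI 1 to 5 and 0.147, 0.316, 0.0316, 0.133 and 0.145 CPM in Vehicle-CCI 1 to 5 (log2 fold change 0.92 ± 0.53, SE, edgeR adjusted p = 1.00).

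By sign alone, 32 of 38 channel genes were above 0 in TD-CCI over Vehicle-CCI, with all 10 calcium pores among them, where 53.3% of all genes tested were below 0. In TCF-CCI 24 of 38 were above 0 (55.6% of all genes below), with 16 of 19 pores, 8 of 19 auxiliary genes and none of the 4 sodium channel beta genes. In TNF-CCI 23 of 38 were above 0 (50.6% of all genes below), with 10 of 19 pores and 13 of 19 auxiliary genes. The median log2 fold change was 0.13 in TD-CCI, 0.12 in TCF-CCI and 0.04 in TNF-CCI. The 3 comparisons share the Vehicle-CCI libraries, and the genes of a library are not independent of each other. TNF-CCI and Vehicle-CCI also differed in library totals and in median mitochondrial rRNA share. The part of these differences in the signs was not tested.

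**Figure D4:**
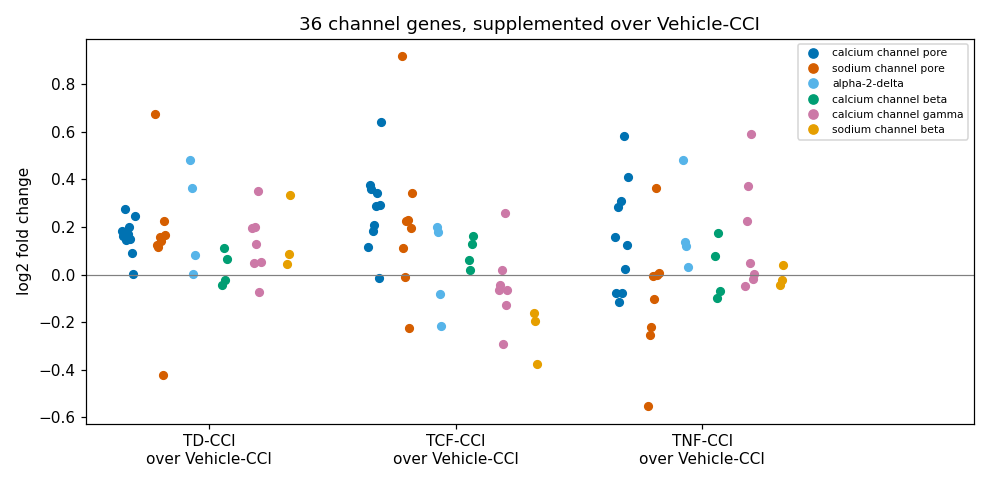
Log2 fold change of 36 of the 38 channel genes in TD-CCI, TCF-CCI and TNF-CCI over Vehicle-CCI, by kind of subunit. Each point is 1 gene, the colour gives its kind, and none passed an edgeR adjusted p of 0.05. All 10 calcium pores lie above 0 in TD-CCI and the 3 sodium channel beta genes drawn lie below 0 in TCF-CCI.

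The dependence of several values on Vehicle-sham 2 was examined gene by gene. Of the 38 genes, 24 lay below the range of the other 4 sham libraries in Vehicle-sham 2, 6 above it and 8 within (63.2%, 15.8% and the rest), against 40.5% below and 32.6% above over all genes. The calcium pores had a median log2 ratio of -1.93 to the mean of the other sham libraries. Cacna1d was at 29.1 CPM in Vehicle-sham 2, against a mean of 218 CPM in the other 4, Cacna1c at 8.02 against 47.8 CPM, and Cacna1h at 49.6 against 257 CPM. Scn8a was at 89.5 against 342 CPM, Cacng8 at 38.7 against 148 CPM and Scn3b at 157 against 464 CPM. Above the other libraries, Cacng2 was at 87.98 against 51.2 CPM, Cacng7 at 157 against 118 CPM, Scn2a at 245 against 187 CPM and Scn3a at 70.5 against 61.6 CPM. Cacng7 and Cacng8, neighbours on chromosome 1, thus lay on opposite sides in this library. Scn7a, at 2.73 against 2.72 CPM, was within the range.

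**Figure D5:**
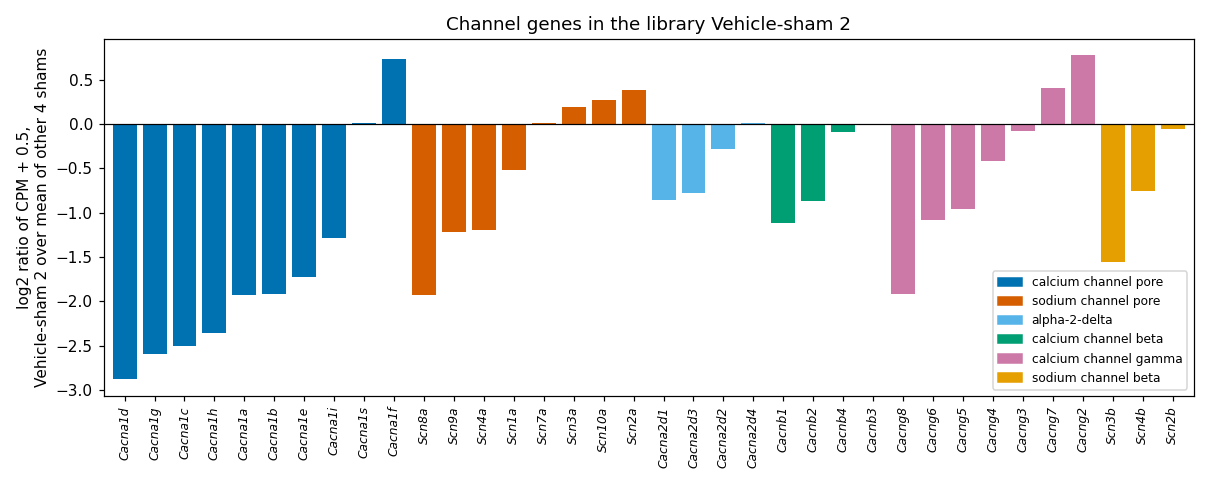
Log2 ratio of Vehicle-sham 2 to the mean of the other 4 sham libraries (CPM with 0.5 added) for 36 of the 38 channel genes, by kind of subunit. The bars of the calcium pores have a median of -1.93, and those of Cacng2, Cacng7, Scn2a and Scn3a point upwards.

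Genes that act with these channels were read from lists of known partners. Of 24 tested partners of sodium channels at the axon initial segment and node, 1 was lower and none higher against sham in the averaged CCI groups, where 5.92% of all genes were called. This was Fgf13, an intracellular FGF that binds the sodium channel tail, with 86.7, 125 and 188 CPM as the lowest, median and highest of the CCI libraries, against 195, 432, 147, 183 and 189 CPM in Vehicle-sham 1 to 5. Vehicle-sham 2 was far above every other library. The log2 fold change was -0.84 ± 0.18 (SE, edgeR adjusted p = 0.0222), and -0.45 ± 0.15 without Vehicle-sham 2 (edgeR adjusted p = 0.166). Fgf12, a gene of the same family, had -0.44 ± 0.17 (SE, edgeR adjusted p = 0.103). The 26 tested partners of calcium channels at the active zone had a median log2 fold change of -0.24, with 22 below 0, where the median of all genes was 0.01. Among them, Rims2, a scaffold that tethers calcium channels, had -0.31 ± 0.11 (SE, edgeR adjusted p = 0.0963).

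The 25 tested modulators of calcium channels had a median log2 fold change of -0.17, with 16 below 0. Among the genes called, Calm2 and Calm3 were lower. Both encode calmodulin, the calcium sensor bound to both channel families. Calm3 had 536, 700 and 1226 CPM as the lowest, median and highest of the CCI libraries, against 922, 1690, 1011, 1191 and 1133 CPM in Vehicle-sham 1 to 5. The groups overlapped and the highest library was Vehicle-sham 2. The log2 fold changes were -0.68 ± 0.19 for Calm2 and -0.67 ± 0.15 for Calm3 (SE, edgeR adjusted p = 0.0373 and 0.0240), and -0.60 and -0.48 without Vehicle-sham 2 (edgeR adjusted p = 0.173 and 0.141). Stac3, an adaptor of the muscle calcium channel, was higher at a very low level, 0.308 CPM over CCI and 0.103 CPM over sham (1.48 ± 0.44, SE, edgeR adjusted p = 0.0456, and 0.149 without Vehicle-sham 2). Of the sodium leak channel complex 3 genes were tested and none called, with Nalcn, its pore, at -0.39 ± 0.15 and Unc80 at -0.24 ± 0.12 (SE, edgeR adjusted p = 0.101 and 0.222). Without Vehicle-sham 2 no gene of these 4 lists was called, where 0.066% of all genes were.

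Several of the genes named here have close relatives whose coding sequences are alike, among them the Scn pores of chromosome 3 and the calmodulin genes. No label or header says how reads shared between such genes were counted or whether counting used strand. The split between paralogs, and values where genes overlap, are therefore uncertain.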

How the data were processed

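PolyA RNA of rat hippocampus was sequenced from libraries made with the Universal Plus mRNA-Seq kit, per the labels' protocols. The authors deposited 1 table of raw counts per gene for all 25 libraries, and per the submitters' processing notes the tools were STAR, Salmon, featureCounts and DESeq2 (versions not given) with the build mRatBN7.2. The authors also deposited log2 fold changes and p-values from DESeq2 for each CCI group over the control, per the file headers. Those tables are quoted only where named.

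Libraries were grouped by their labels. Of the 34322 genes, 7 with empty cells were left out. No pair of libraries within a group looked like 1 library deposited again (chi-square per degree of freedom 25.8 to 796), which does not show that they came from separate animals. Counts were fitted with edgeR 4.0.16 (R 4.3.3) by the quasi-likelihood F test with TMM factors (0.645 to 1.10), filterByExpr and robust dispersions, with 1 mean per group over all 25 libraries. Adjusted p-values are Benjamini-Hochberg over 21064 genes, with a threshold of 0.05. The SE of an edgeR log2 fold change is its absolute value divided by the square root of the F statistic, and is not fitted directly. RPKM is the TMM-scaled CPM divided by the exon length of the table in kilobases. DESeq2 1.42.0 and limma 3.58.1 (voom with quality weights) were alternatives, as were DESeq2 size factors, no filter or a filter at 1 CPM in 5 libraries, the replicate number as a block, the mitochondrial rRNA share as a covariate, only the groups compared, a threshold of 0.1, and leaving out single libraries or Vehicle-sham 2 and 3. All 40 symbols matched RefSeq (GRCr8), and 27 had a promoter sequence in the table.

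The members and gene lists were chosen with earlier results of these data known. Values per library are given for members called in any comparison, for the 3 of smallest p in the averaged CCI groups and the one of smallest p in each other comparison, and for the 3 highest per length among calcium pores, sodium pores and auxiliary genes. Of each partner list the called genes and the 2 of smallest p are named. Some genes that these rules would name are not reported here. Other genes and libraries were singled out after their values were seen.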

Additional observations from a re-analysis of the deposited data

Results flagged for a closer look

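Of 180 groups of 5 libraries (36 genes in 5 groups), 11 had 1 library far from the other 4 relative to the group's range. For independent normal values the rule gives about 1 in 20. These genes share their libraries, so that rate is no measure of chance here. Vehicle-sham 2 accounted for 2 of the 11 and other libraries for 9, although it lay below the other 4 sham libraries in 24 of the 38 genes tested. All values are CPM.

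Among the calcium pores, Cacna1g was at 275 in TNF-CCI 1 and at 58.3 to 114 in the other TNF-CCI libraries. Cacna1b was at 141 in Vehicle-CCI 5 and at 102 to 111 in the others of its group. Cacna1f, of low level, was at 0.334 in Vehicle-CCI 4 and at 0.618 to 0.719 in the others.

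Among the sodium pores, Scn9a was at 2.11 in Vehicle-sham 2 and at 5.23 to 5.78 in the other sham libraries.

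Among the auxiliary genes, library TD-CCI 4 stood highest in its group for 3. Cacna2d2 was at 72.5 there (28.6 to 38.1 in the others), Cacng3 at 15.01 (9.12 to 10.4) and Scn4b at 24.9 (5.99 to 10.8). The same library had a summed level of 10 thalamus markers of 381 (127 to 173 in the others) and of 8 oligodendrocyte markers of 22721 (8172 to 13986 in the others), and the part of these cells was not tested. Vehicle-CCI 4 stood highest in its group for Scn4b, at 18.5 (5.32 to 7.07), and its oligodendrocyte marker sum was 27018 (10538 to 12577 in the others). Its sum of pyramidal and granule neuron markers was also highest, at 6155 (2214 to 3753 in the others). So was that of interneuron markers, at 411 (197 to 332 in the others). The part of any of these cells in Scn4b was not tested. Cacna2d4 was at 16.03 in TCF-CCI 2 (25.5 to 28.2 in the others), Cacng6 at 0.316 in Vehicle-CCI 2 (0.801 to 0.917 in the others) and Cacnb1 at 60.3 in Vehicle-sham 2 (121 to 142 in the others).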

How the results depend on the processing

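The number of channel genes called in the averaged CCI groups against sham (3) was 1 with the mitochondrial rRNA covariate, 5 by limma voom (with Scn3b and Scn4b added), 0 without Vehicle-sham 2 and 3, and 0 to 5 with single libraries left out. It was 0 without Vehicle-sham 2, 4 without TD-CCI 4 (adding Scn4b, edgeR adjusted p = 0.0462) and 5 without Vehicle-CCI 4 (among them Scn4b, 0.0465). Over all genes edgeR called 1248, 168 with the covariate, 14 without Vehicle-sham 2, 0 without Vehicle-sham 2 and 3, and 2117 without Vehicle-CCI 4. Under the covariate Scn7a kept its call (2.95, edgeR adjusted p = 0.0387), and Cacng2 (-0.51, 0.0976) and Cacng7 (-0.34, 0.124) did not. Cacng7 also missed the threshold with no filter (edgeR adjusted p = 0.0543) and without any of TD-CCI 1, 3 and 5, TCF-CCI 1 and 3, TNF-CCI 1 and 5, Vehicle-CCI 1, 2 and 5 and Vehicle-sham 2, 3 and 4 (0.0515 to 0.233). Vehicle-CCI over sham (0) gave 1 by DESeq2 and 0 to 1 with single libraries left out (1 without Vehicle-CCI 4). TD-CCI (0) gave 1 by DESeq2 and 1 with only the groups compared, and TCF-CCI (0) gave 1 by DESeq2 and 4 by voom. TNF-CCI (1) gave 2 by DESeq2, 2 at a threshold of 0.1, 0 without Vehicle-sham 2 and 3, and 0 to 2 with single libraries left out (2 without Vehicle-sham 5, adding Cacng2). Against Vehicle-CCI the count was 0 under every alternative run. Some small changes turned sign. Scn8a (0.00) was -0.22 with the covariate, -0.36 without Vehicle-sham 2 and 3, -0.19 by voom and -0.20 to 0.16 with single libraries left out. In the same leave-one-out fits Cacng8 ran from -0.26 to 0.0687, Cacna1h from -0.35 to 0.0078, Cacna1e from -0.30 to 0.0643, Cacna1a from -0.32 to 0.00068 and Scn1a from -0.0932 to 0.0277. The cause of these shifts was not tested.

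With the replicate number as a block, the averaged CCI groups gave the same 3 genes, TNF-CCI over sham 2 genes (adding Cacng2, -0.65, edgeR adjusted p = 0.0427), and Cacng8 0.00029 in the averaged groups. Over all genes the block gave 1863 calls. Deviations of same-numbered libraries correlated at -0.416 to 0.523, with 31 of 50 pairs over 0.1. Pairs of unlike number were not examined for reference, so these values cannot decide whether the numbers pair the libraries.

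With 5 sham libraries, of which 2 stood apart in mitochondrial rRNA, the sham spread limits every comparison with sham. Genes under about 1 CPM are limited by counting as well.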
